A study of Homo sapiens with 6 samples.

Results

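The genes described here are the Wnt ligands, their receptors and antagonists, and the feedback genes of the pathway. They were chosen by symbol alone, as all WNT, FZD (Frizzled), DKK (Dickkopf) and SFRP (secreted Frizzled-related) genes, with WIF1, LRP5, LRP6, AXIN1, AXIN2, LEF1, TCF7, RNF43, ZNRF3, NKD1, NKD2, LGR4 and LGR5. The rule found 50 genes with 71 transcripts among the 23617 symbols of the MDA-MB-231 table, and 6 of them among the 1854 symbols of the HMLER table. RNA was sequenced from 6 libraries of human breast cell lines, either untreated or given 10 µM decitabine (DAC, 5-aza-deoxycytidine) every day for 72 h. DAC is a cytidine analog that traps DNA methyltransferases, so that methylation is lost as cells divide. The groups were HMLER with DAC (2 libraries), untreated HMLER (2 libraries), MDA-MB-231 with DAC (1 library) and untreated MDA-MB-231 (1 library). MDA-MB-231 is an established line from a human breast cancer, and HMLER was made by transforming human mammary epithelial cells in culture. HMLER medium also held EGF, hydrocortisone, puromycin and insulin, so that the line and its medium cannot be told apart. Each library was a pool of several RNA extractions. A label gives the untreated MDA-MB-231 library another cell line number, and its title was followed.

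Wnt proteins are secreted, lipid-modified ligands that bind a Frizzled receptor together with the co-receptor LRP5 or LRP6. Without a ligand, a complex built on an axin marks β-catenin for destruction, and with a ligand β-catenin reaches the nucleus and acts with TCF/LEF factors. SFRP proteins and WIF1 bind the ligands and DKK proteins of the DKK1 type bind LRP6, and in breast cancer the promoters of several of these antagonists are known to carry DNA methylation. AXIN2, LGR5, RNF43, ZNRF3, NKD1 and DKK1 are well-known feedback targets of the pathway.

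Expression is given in FPKM, sequenced fragments scaled to transcript length and library depth, and the FPKM of all transcripts of a symbol were summed. With 1 MDA-MB-231 library per condition there is no replicate check, no test was run, and each transcript's error is given as Cuffdiff's own bounds. A gene was called higher or lower where its DAC/untreated ratio was above 2 or under 0.5 and its FPKM reached 1 in at least 1 library. Low FPKM of MDA-MB-231 came out as whole reads, within 0.1 of a read for all 818 low values of the untreated library and all 883 of the DAC library. One read was worth 1.01 times as many FPKM after DAC, so that the FPKM denominators were alike. The FPKM of all transcripts summed to 589238 untreated and 480455 after DAC, and how the libraries were scaled is not given in the sources used here. Reads were therefore inferred for members with a single transcript, and 95% intervals of their ratios (Clopper-Pearson, on the share of reads from the DAC library) cover counting error only. A gene at 0 reads was set against a limit of 3 reads. The DAC count was taken as exact there, so that such a fold leaves out its counting error. Over the 11292 symbols that reached 1 FPKM in both libraries, the DAC/untreated ratio had a median of 0.912 (log2, -0.13). The MDA-MB-231 label was checked on markers. VIM was 3066 FPKM untreated and 1134 after DAC, CD44 was 212.3 and 138.7, and FN1 was 39.8 and 111.3, while CDH1, ESR1 and PGR were listed at 0 untreated and were at most 0.179 FPKM after DAC. EPCAM (7.90 and 9.78 FPKM) and ERBB2 (11.8 and 12.7 FPKM), which were taken as low in this line, were above 1 FPKM. Of the 9 luminal markers, 3 stayed under 1 FPKM in both libraries, and the list summed to 337.4 and 331.6 FPKM, mostly KRT8 and KRT18. KRT19 was 0.518 and 13.5 FPKM, GATA3 0.795 and 1.71 FPKM, and MUC1 0.259 and 1.23 FPKM. Of the markers of other cell types, 3 of 4 basal, 3 of 5 fibroblast, 3 of 3 leukocyte and 3 of 3 endothelial genes stayed under 1 FPKM. The basal list nevertheless summed to 0.716 FPKM untreated and 15.2 after DAC, almost all of it ACTA2, and the fibroblast list to 1.11 and 17.3, mostly COL1A1. Their part in the results below was not tested. The HMLER table holds 1 value per condition, merged by the authors over its libraries, and only transcripts more than 2 times higher after DAC, so that nothing can be said here of members it does not list, and HMLER markers could not be checked.

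As DAC acts on CpG sites, promoter sequences are shown for members on which the results turn. RefSeq promoter windows (250 bases before to 50 after the start, GRCh38.p14) matched 33 of the 50 members in 38 windows. AXIN2, DKK2, DKK3, DKK4, FZD10, FZD2, FZD3, FZD6, FZD7, LGR5, LRP6, NKD1, SFRP1, WNT10B, WNT11, WNT7B and ZNRF3 were not matched. The 250 bases before the start follow, 5′ to 3′, with every CpG in capitals. FZD5, FZD8 and FZD9 had higher values after DAC in both lines, TCF7 was the transcription factor with the largest ratio and has 2 starts that differ in CpG content, WIF1 was listed at 0 without DAC, DKK1 had the largest HMLER ratio, and WNT5B is the main ligand of untreated MDA-MB-231 cells.
FZD5 (GRCh38.p14, chr2:207769907-207770156, minus strand): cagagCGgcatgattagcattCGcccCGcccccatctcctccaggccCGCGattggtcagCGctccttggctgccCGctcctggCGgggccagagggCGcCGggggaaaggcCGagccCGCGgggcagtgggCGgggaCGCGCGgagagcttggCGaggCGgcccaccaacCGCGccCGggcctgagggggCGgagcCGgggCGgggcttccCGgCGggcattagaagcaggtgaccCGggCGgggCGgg
FZD8 (GRCh38.p14, chr10:35642297-35642546, minus strand): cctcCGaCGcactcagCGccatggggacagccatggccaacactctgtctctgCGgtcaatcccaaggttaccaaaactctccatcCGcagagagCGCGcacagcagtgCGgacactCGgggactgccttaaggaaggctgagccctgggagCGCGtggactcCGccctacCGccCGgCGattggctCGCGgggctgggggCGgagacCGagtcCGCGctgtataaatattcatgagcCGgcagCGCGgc
FZD9 (GRCh38.p14, chr7:73433528-73433777, plus strand): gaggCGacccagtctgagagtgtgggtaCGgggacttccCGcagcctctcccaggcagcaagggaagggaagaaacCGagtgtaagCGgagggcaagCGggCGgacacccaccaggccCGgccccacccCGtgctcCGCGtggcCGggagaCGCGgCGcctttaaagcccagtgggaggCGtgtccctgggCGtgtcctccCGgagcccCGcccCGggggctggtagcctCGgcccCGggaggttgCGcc
TCF7 start 1 (GRCh38.p14, chr5:134115363-134115612, plus strand): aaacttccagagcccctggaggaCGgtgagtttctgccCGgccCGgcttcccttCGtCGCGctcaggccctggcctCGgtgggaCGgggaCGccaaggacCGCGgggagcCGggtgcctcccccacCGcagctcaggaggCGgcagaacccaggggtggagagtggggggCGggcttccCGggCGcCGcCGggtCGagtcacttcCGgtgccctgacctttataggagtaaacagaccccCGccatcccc
TCF7 start 2 (GRCh38.p14, chr5:134123368-134123617, plus strand): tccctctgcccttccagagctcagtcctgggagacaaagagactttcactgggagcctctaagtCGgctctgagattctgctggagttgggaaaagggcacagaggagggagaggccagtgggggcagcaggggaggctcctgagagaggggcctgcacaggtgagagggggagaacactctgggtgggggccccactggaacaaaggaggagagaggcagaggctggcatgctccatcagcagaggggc
WIF1 (GRCh38.p14, chr12:65121306-65121555, minus strand): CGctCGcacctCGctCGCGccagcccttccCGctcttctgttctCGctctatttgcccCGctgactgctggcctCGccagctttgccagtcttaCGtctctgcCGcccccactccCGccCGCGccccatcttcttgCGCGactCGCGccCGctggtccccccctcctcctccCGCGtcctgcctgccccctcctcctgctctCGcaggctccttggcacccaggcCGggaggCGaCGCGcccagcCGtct
DKK1 (GRCh38.p14, chr10:52314031-52314280, plus strand): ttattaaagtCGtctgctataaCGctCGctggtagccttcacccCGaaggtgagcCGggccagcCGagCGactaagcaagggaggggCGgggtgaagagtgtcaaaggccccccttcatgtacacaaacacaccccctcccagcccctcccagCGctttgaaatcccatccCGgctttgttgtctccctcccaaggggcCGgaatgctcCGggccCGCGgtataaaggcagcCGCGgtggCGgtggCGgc
WNT5B (GRCh38.p14, chr12:1616806-1617055, plus strand): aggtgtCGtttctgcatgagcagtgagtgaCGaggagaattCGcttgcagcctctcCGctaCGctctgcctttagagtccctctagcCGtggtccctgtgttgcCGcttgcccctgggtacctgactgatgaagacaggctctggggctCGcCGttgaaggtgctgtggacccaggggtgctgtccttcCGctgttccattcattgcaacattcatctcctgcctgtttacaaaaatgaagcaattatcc

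A window was counted as CpG-rich at a GC content above 50% and a CpG observed/expected ratio above 0.6. By this measure 29 of the 38 member windows (76.3%) were CpG-rich, against 59.7% of the 20658 windows of all symbols in the MDA-MB-231 table. The median CpG observed/expected ratio was 0.77 for the members and 0.74 for all windows, and the members ranged from 0 (the first RNF43 window) to 1.13 (AXIN1). FZD5 had 38 CpG in its 300 bases (ratio 0.87), FZD8 had 31 (0.92), FZD9 had 31 (0.77), WIF1 had 29 (0.88) and DKK1 had 20 (0.66). The upstream TCF7 start had 25 CpG (0.69) and the downstream start had 3 (0.12). WNT5B, at a ratio of 0.507 in MDA-MB-231 and not called, had 10 and 7 CpG in its windows (0.50 and 0.35), and neither was CpG-rich. Among members at 1 FPKM or more with a window, all 4 that were called higher (FZD5, FZD8, TCF7 and WNT2B) had a CpG-rich window, as did 8 of the 10 that were not called. CpG-rich windows thus occurred on both sides. Over all symbols at 1 FPKM or more, 7.83% of the 7936 with a CpG-rich window were called higher, and 21.8% of the 1022 without one. These groups were not matched for untreated level, and calls were more frequent at low levels (53.1% under 2 FPKM and 2.8% at or above it). CTTTGAT, a form of the TCF/LEF motif searched on both strands, was in 0 of the 38 member windows and in 1.98% of all windows. Other forms of the motif were not searched, so that a lack of TCF/LEF sites cannot be read from this.

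In MDA-MB-231 cells, 24 members reached 1 FPKM in at least 1 library, 21 were detected below 1 FPKM, and WNT3A, WNT8A, WNT9B, FZD10 and DKK4 were listed at 0 in both. Of the 24, 7 were called higher after DAC (WNT11, WNT7B, TCF7, DKK3, WNT2B, FZD5 and FZD8), a share of 29.2%, where 10.8% of all 12525 symbols at 1 FPKM or more were higher. None was called lower, where 4.82% of all symbols were. WNT10B lay just inside the range counted as not called at a ratio of 1.89, and WNT5B at 0.507. The called members had low values in untreated cells, from 0.136 to 1.29 FPKM, and WNT11, WNT7B, DKK3, WNT2B and the uncalled WNT5A passed 1 FPKM only through the DAC library. Split by the untreated level, a division made after the values were seen, 7 of the 10 members under 2 FPKM were higher (70.0%). Of all symbols in that range, 53.1% were. At or above 2 FPKM, 0 of the 14 members were higher, beside 2.8% of all symbols. Both shares under 2 FPKM include genes that passed 1 FPKM only through the DAC library, whose direction was thus set by the filter, so that no excess can be read from them. With 1 FPKM required in both libraries, 3 members (FZD5, FZD8 and TCF7) and 494 of all symbols were higher. The median log2 change with 1 FPKM added was 0.25 for the 24 members and -0.08 for all symbols. No member had a transcript whose bounds in the 2 libraries did not overlap, where 1.43% of symbols at 1 FPKM or more had such bounds in their largest transcript. In bulk RNA, a higher level per cell and a larger share of expressing cells cannot be told apart.

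**Figure D1:**
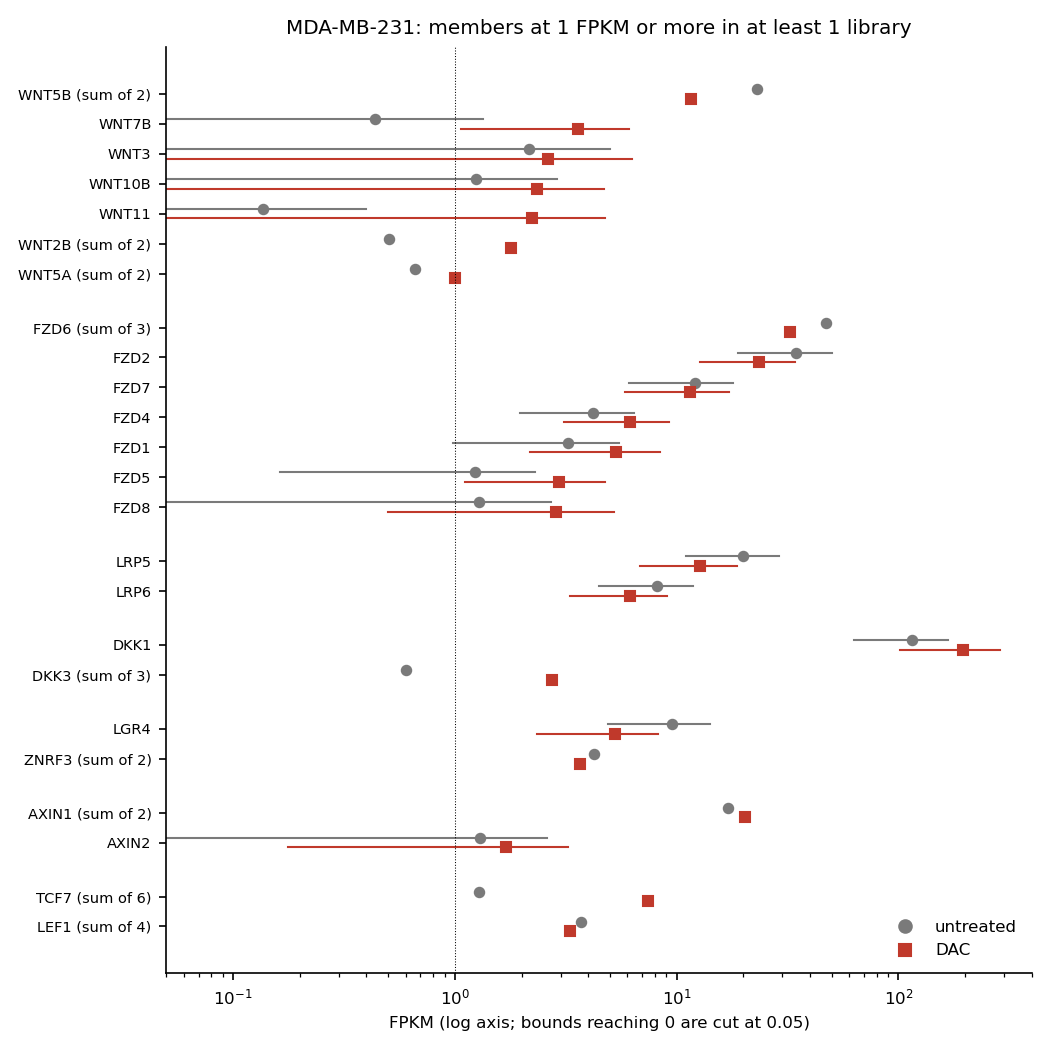
FPKM (log axis) of the 24 members that reached 1 FPKM in either MDA-MB-231 library, grouped by role, for the untreated (grey circles) and the DAC (red squares) library; lines are Cuffdiff's bounds, drawn for members with 1 transcript and cut at the left edge where they reach 0. The widest gaps between circle and square are those of WNT11, WNT7B and TCF7, and the bounds drawn for the libraries overlap for every member but are wide at low levels.

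**Figure D2:**
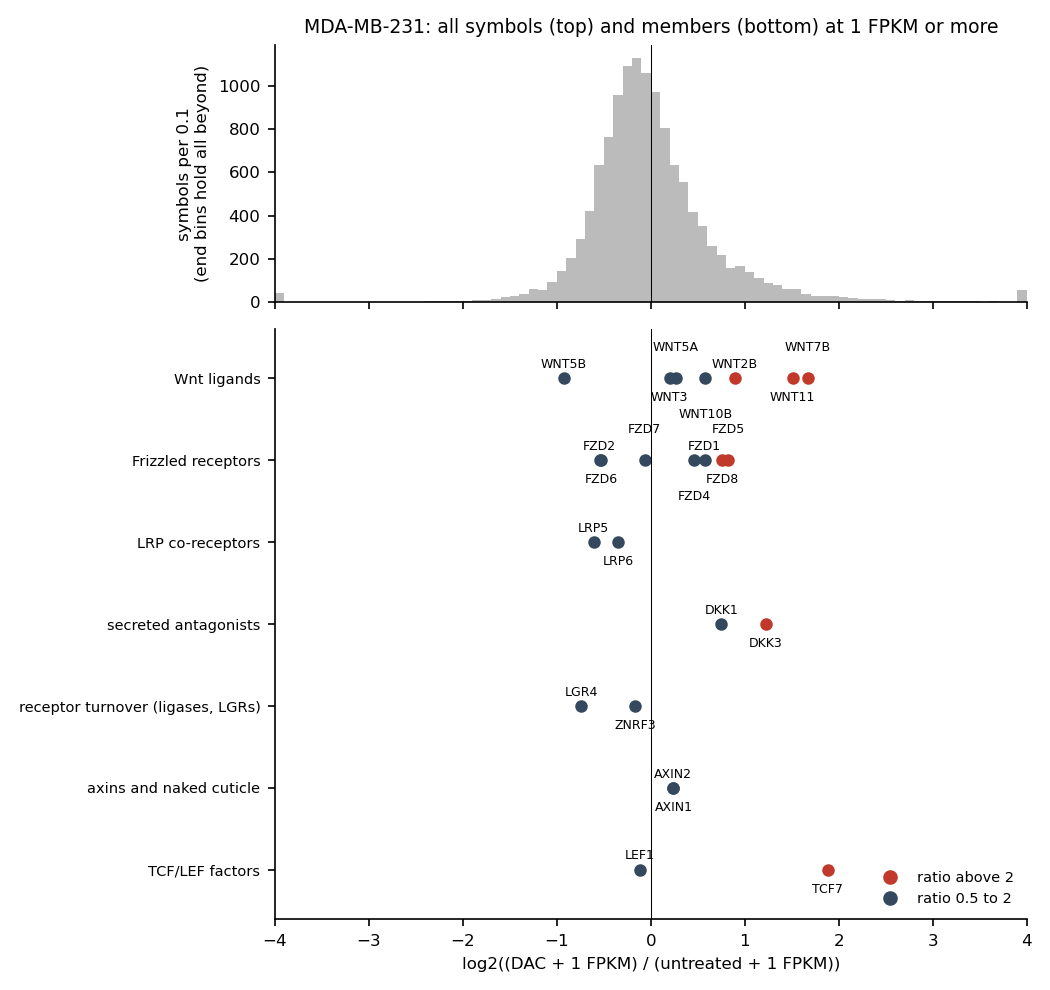
Log2 change after DAC with 1 FPKM added to each value, for all 12525 symbols at 1 FPKM or more (top, number of symbols per bin of 0.1, with values beyond the axis in the end bins) and for the 24 members by role (bottom, red for a ratio above 2). The red points lie between 0.76 (FZD8) and 1.88 (TCF7), and the lowest member is WNT5B at -0.92.

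Among the 19 Wnt ligands, the summed FPKM was alike in both libraries (28.6 untreated and 27.5 after DAC), while its make-up differed. WNT5B, a ligand of the β-catenin-independent branch, made up 80.2% of it in untreated cells and 42.2% after DAC. WNT5B (hg19, chromosome 12, 1726222 to 1756378, plus strand) was 22.9 FPKM untreated and 11.6 FPKM after DAC, a ratio of 0.507. The bounds of its larger transcript, 11.3 to 33.3 and 4.86 to 18.4 FPKM, overlapped.

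WNT7B, a ligand known from mammary and lung tissue, had the largest gain in FPKM of the 19 ligands. WNT7B (chromosome 22, 46316248 to 46373008, minus strand) was 0.437 FPKM (bounds 0 to 1.34) untreated and 3.58 FPKM (bounds 1.07 to 6.10) after DAC. This is a ratio of 8.21, from 69 and 563 inferred reads, with a counting interval of 6.39 to 10.7. WNT11, which acts mainly through the β-catenin-independent branch, had the largest ratio of all members at 1 FPKM or more. WNT11 (chromosome 11, 75897370 to 75917574, minus strand) was 0.136 FPKM (bounds 0 to 0.40) untreated and 2.23 FPKM (bounds 0 to 4.74) after DAC. The ratio of 16.4 came from 10 and 163 inferred reads and had a counting interval of 8.70 to 34.9. WNT2B (chromosome 1, 113010040 to 113063910, plus strand) was 0.506 and 1.80 FPKM as the sum of 2 transcripts, a ratio of 3.55. The remaining ligands above 1 FPKM were not called. WNT10B was 1.25 and 2.36 FPKM, with a counting interval of its ratio of 1.5 to 2.39, WNT3 was 2.16 and 2.63 FPKM (ratio 1.22, interval 0.949 to 1.57), and WNT5A was 0.664 and 1.0 FPKM (ratio 1.51). The WNT3 interval includes a ratio of 1, so that a difference was not detectable even against counting error.

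Several Wnt ligand genes lie next to each other in the genome. WNT6 and WNT10A are 6300 bases apart on chromosome 2, and both had higher values after DAC, from 0.0157 to 0.237 FPKM and from 0.151 to 0.370 FPKM. WNT10B and WNT1 are 6594 bases apart on chromosome 12. WNT1, the founding member of the family, was listed at 0 untreated and was 0.670 FPKM after DAC. In the pairs WNT9A and WNT3A on chromosome 1 and WNT3 and WNT9B on chromosome 17, WNT3A and WNT9B were at 0 in both libraries, beside values of 0.226 and 0.684 FPKM for WNT9A. All 21 members detected below 1 FPKM, neighbours or not, had higher values after DAC. The share of all symbols in this range with any higher value was not counted, and 63.3% of them were more than 2-fold higher. Whether lying next to another Wnt gene mattered was not tested.

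Frizzled genes code for the receptors themselves, and 7 of the 10 reached 1 FPKM. FZD6 and FZD2 had the highest levels, FZD5 and FZD8 were called higher, and the summed FPKM of the family was 104.2 untreated and 85.6 after DAC. FZD5 (chromosome 2, 208627310 to 208634143, minus strand), whose CpG-rich promoter is printed above, was 1.23 FPKM (bounds 0.163 to 2.3) untreated and 2.94 FPKM (bounds 1.11 to 4.77) after DAC. Its ratio was 2.39, with a counting interval of 2.10 to 2.72. FZD8 (chromosome 10, 35927177 to 35930362, minus strand) was 1.28 FPKM (bounds 0 to 2.72) and 2.86 FPKM (bounds 0.502 to 5.21), a ratio of 2.23 with a counting interval of 1.85 to 2.70. The FZD8 locus also holds the microRNA gene MIR4683. The Frizzled genes with the highest untreated levels had lower values after DAC. FZD6, summed over 3 transcripts, was 47.0 and 32.3 FPKM (ratio 0.687), and FZD2 was 34.6 (bounds 19.0 to 50.3) and 23.5 FPKM (bounds 12.8 to 34.1), a ratio of 0.677. FZD7 was 12.1 and 11.5 FPKM, a log2 change of -0.06 that became 0.06 once scaled to the median ratio. FZD1 was 3.25 and 5.32 FPKM (ratio 1.64) and FZD4 was 4.21 and 6.16 FPKM (ratio 1.46). None of these 5 genes was past 2-fold. The detected Frizzled genes under 10 FPKM untreated thus had higher values after DAC and those above 10 FPKM lower ones. The exception is FZD7, whose direction turned with scaling to the median ratio. This cut was made after the values were seen. Over all symbols, more were called higher at low untreated levels (53.1% under 2 FPKM and 2.8% at or above it). Those shares count ratios above 2 at another cut, and the direction of all symbols on each side of 10 FPKM was not counted. FZD3 stayed under 1 FPKM at 0.501 and 0.541 FPKM, with 11.4% of it in its smaller transcript untreated and 45.8% after DAC.

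LRP5 and LRP6, the co-receptors that carry the signal on to the axin complex, were both lower after DAC without passing 2-fold. LRP5 was 20.0 FPKM (bounds 11.0 to 29.0) and 12.8 FPKM (bounds 6.87 to 18.7), a ratio of 0.639. LRP6 was 8.14 FPKM (bounds 4.47 to 11.8) and 6.19 FPKM (bounds 3.30 to 9.08), a ratio of 0.760. Scaled to the median ratio, they were 0.700 and 0.833. LGR4, an R-spondin receptor that protects Frizzled from turnover, was 9.51 FPKM (bounds 4.89 to 14.1) untreated and 5.29 FPKM (bounds 2.36 to 8.22) after DAC, a ratio of 0.556. ZNRF3, the membrane ligase that removes Frizzled from the surface, was 4.25 and 3.67 FPKM over 2 transcripts, a ratio of 0.865. Its relative RNF43 was far below 1 FPKM, at 2 and 7 inferred reads, and its locus overlaps other annotated genes.

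The 9 secreted antagonists comprised 1 gene at a very high level, 1 called gene and 7 at or near 0. DKK1 (chromosome 10, 54074041 to 54077417, plus strand), an inhibitor that binds LRP6, was the most abundant member in both libraries. It was 115.6 FPKM (bounds 63.4 to 167.8) untreated and 195.0 FPKM (bounds 102.0 to 288.0) after DAC, a ratio of 1.69 with a counting interval of 1.64 to 1.74. DKK1 gave 99.4% of the summed FPKM of the antagonists untreated and 98.1% after DAC. DKK3 (chromosome 11, 11984543 to 12030917, minus strand), a family member that does not bind LRP6 as DKK1 does, was 0.603 FPKM untreated and 2.73 FPKM after DAC, a ratio of 4.54. Nearly all of it was assigned to 1 of its 3 transcripts, whose bounds (0 to 1.81 and 0.228 to 5.24) overlapped.

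TCF7, which codes for the factor TCF1, was called higher, and its relative LEF1 was not. TCF7 (chromosome 5, 133450402 to 133483920, plus strand), summed over 6 transcripts, was 1.29 FPKM untreated and 7.43 FPKM after DAC, a ratio of 5.77. The transcript with the largest value, NM_201632, was 0.497 FPKM (bounds 0 to 1.45) and 4.58 FPKM (bounds 0.861 to 8.30), and NM_003202 was 0.640 (bounds 0 to 1.85) and 2.54 FPKM (bounds 0.0179 to 5.07). Both transcripts were therefore higher, and the first made up 38.6% of the gene untreated and 61.6% after DAC. LEF1 was 3.69 and 3.32 FPKM over 4 transcripts (ratio 0.900). One LEF1 transcript, NM_001130713, was 1.12 FPKM (bounds 0 to 2.62) untreated and at 5.65e-05 FPKM after DAC, while the largest, NM_016269, was 1.43 and 2.02 FPKM. The split of reads among transcripts that share most exons is an estimate, and the summed values do not depend on it in the same way.

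**Figure D3:**
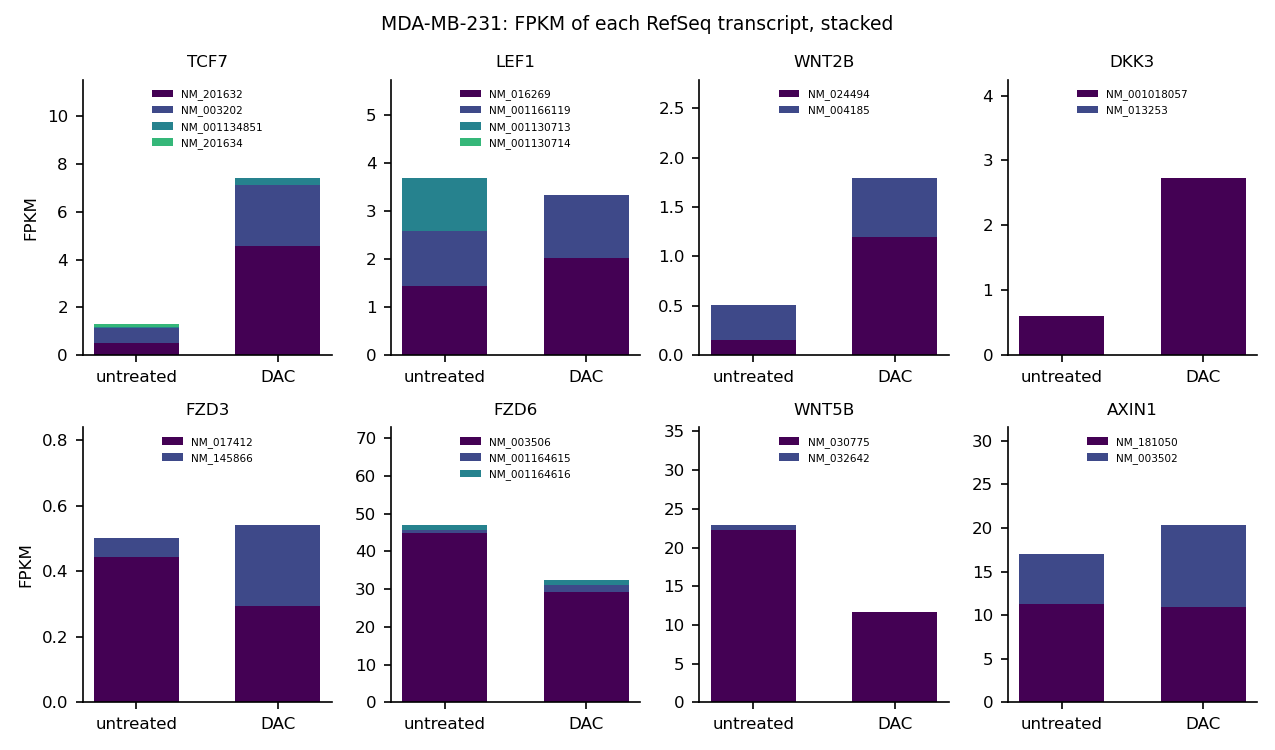
FPKM of each RefSeq transcript, stacked, in the untreated and the DAC library of MDA-MB-231 for 8 members with several transcripts, each on its own linear axis from 0. The TCF7 bar goes from 1.29 to 7.43 FPKM with its 2 main transcripts both larger, while the LEF1 bars are of similar height (3.69 and 3.32 FPKM) with 1 of the transcripts missing after DAC.

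AXIN1, the scaffold of the β-catenin destruction complex, was 17.1 and 20.4 FPKM (ratio 1.19). AXIN2, its inducible relative, was 1.30 FPKM (bounds 0.00521 to 2.60) and 1.71 FPKM (bounds 0.177 to 3.23), a ratio of 1.31 with a counting interval of 1.09 to 1.56. Of the feedback targets named above, none was called in MDA-MB-231. AXIN2, DKK1 and ZNRF3 had ratios between 0.865 and 1.69. LGR5, NKD1 and RNF43 had ratios of 3.59, 5.90 and 3.52 but were under 1 FPKM, so that the rule could not call them.

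The 21 members detected below 1 FPKM all had a higher value after DAC than before it. For 18 of these (85.7%) the value was more than 2-fold higher, where 63.3% of the 6071 symbols in the same range were, and for 0 it was more than 2-fold lower, where 7.84% were. Among all symbols of this range, higher values thus also outnumbered lower ones (3843 against 476). The exceptions to the 2-fold difference were FZD3, WNT4 and WNT16. Of the 14 members listed at 0 untreated, 9 were detected after DAC (64.3%), where 29.1% of the 7077 symbols at 0 were. These 9 were WNT1, WNT2, WNT7A, FZD9, WIF1, SFRP1, SFRP2, DKK2 and NKD2. None of the 36 members detected untreated was listed at 0 after DAC, where 2.07% of such symbols were.

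Reads inferred for these low members after DAC ranged from 3 (SFRP2) to 59 (WNT1). The receptor FZD9 (chromosome 7, 72848109 to 72850450, plus strand) was at 0 reads untreated and at 48 reads (0.530 FPKM, bounds 0 to 1.52) after DAC. Set against the limit of 3 reads, this was 16.1-fold higher. WIF1 (chromosome 12, 65444404 to 65515346, minus strand), which binds Wnt ligands outside the cell, was at 0 and 35 reads (0.406 FPKM, bounds 0 to 1.13), 11.7-fold higher against that limit. SFRP1, a decoy that resembles the ligand-binding part of Frizzled, was at 0 and 18 reads (0.0997 FPKM), 6.04-fold higher against that limit. The other SFRP genes had few reads. SFRP5 was at 6 and 26 reads (ratio 4.36, counting interval 1.76 to 13), SFRP4 at 1 and 6 reads (interval 0.733 to 277.8, which includes 1) and SFRP2 at 0 and 3 reads, which is within the limit that a count of 0 allows. DKK2 and WNT7A were each at 0 and 4 reads. No interval that allows for error in the 4 reads was computed, so that a difference is not shown. Among the ligands, WNT1 was at 0 and 59 reads, 19.8-fold higher against the limit of 3 reads. WNT6 was at 1 and 15 reads (ratio 15.1, interval 2.32 to 635.5). The feedback inhibitor NKD1, which acts on Dishevelled, was at 7 and 41 reads (ratio 5.90, interval 2.62 to 15.6), and LGR5, a stem cell marker and R-spondin receptor, at 16 and 57 reads (ratio 3.59, interval 2.03 to 6.69). For WNT4 (5 and 9 reads), WNT8B (5 and 13) and RNF43 (2 and 7) the counting interval of the ratio included 1. WNT9A (10 and 30 reads) and WNT10A (14 and 34 reads) had intervals of 1.44 to 6.92 and 1.28 to 4.93. With 2 transcripts each and no inferred reads, WNT2 was listed at 0 and at 0.00895 FPKM, and NKD2 at 0 and at 0.0140 FPKM. The highest DAC value of these 21 members was 0.684 FPKM (WNT9A).

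**Figure D4:**
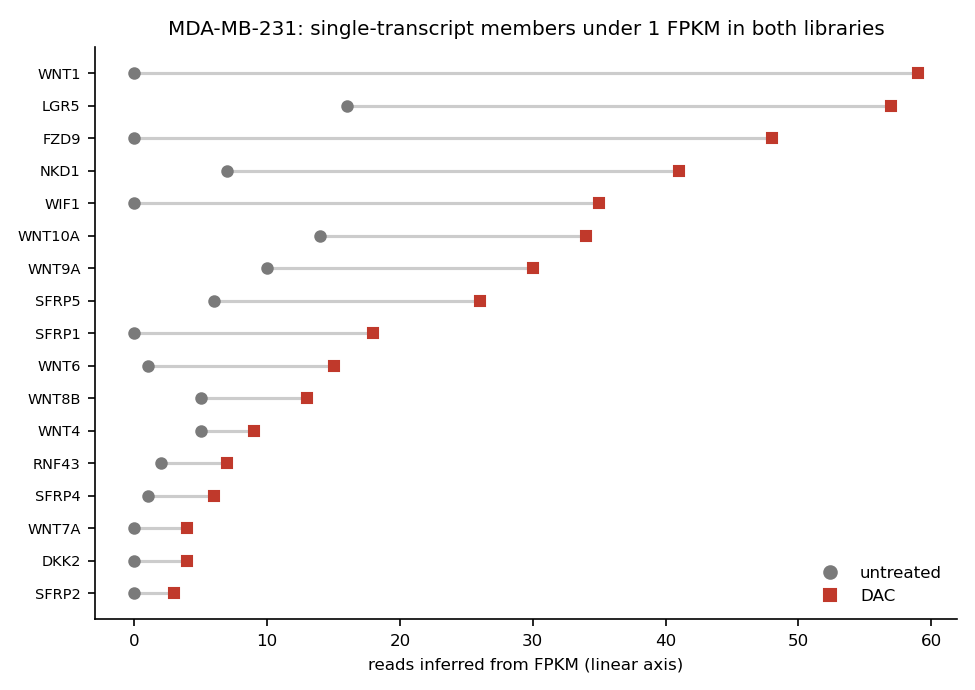
Reads inferred from FPKM (linear axis) for the 17 members with 1 transcript that were detected below 1 FPKM in MDA-MB-231, untreated (grey circles) and after DAC (red squares), ordered by the DAC value. Every square lies to the right of its circle; WNT1, FZD9, WIF1, SFRP1, WNT7A, DKK2 and SFRP2 start at 0, and the largest DAC value is 59 reads (WNT1).

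In HMLER cells, 6 members (12.0% of the 50) were listed as higher after DAC, beside 7.85% of all symbols of the MDA-MB-231 table. They were DKK1, FZD9, AXIN2, WNT7B, FZD5 and FZD8, each with a single listed transcript. The authors' merged value of DKK1 was 5.02 FPKM untreated and 160.7 FPKM after DAC, a ratio of 32.0. FZD9 was 0.218 and 1.88 FPKM (ratio 8.62), and the feedback gene AXIN2 was 0.237 and 1.26 FPKM (ratio 5.32). FZD9 and AXIN2 passed 1 FPKM only through the DAC value, and 4 members remained where both HMLER conditions had to reach 1 FPKM. WNT7B was 2.23 and 8.30 FPKM (ratio 3.71), FZD5 was 1.07 and 3.05 FPKM (ratio 2.86), and FZD8 was 2.81 and 6.6 FPKM (ratio 2.35). No spread between the HMLER libraries can be given for these values, and HMLER and MDA-MB-231 were processed in separate tables, so that their levels are set side by side only.

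FZD5, FZD8 and WNT7B were higher in both lines, 12.5% of the members at 1 FPKM or more in MDA-MB-231, beside 3.66% of all such symbols. These shares were not matched for level. All 3 genes were under 2 FPKM in untreated MDA-MB-231 cells, a range where 53.1% of all symbols were higher in that line. WNT7B passed 1 FPKM there only through the DAC library. FZD9 also had higher values in both tables, but remained under 1 FPKM in MDA-MB-231. The ratios of FZD5 (2.86 in HMLER and 2.39 in MDA-MB-231) and FZD8 (2.35 and 2.23) were close to each other, and those of WNT7B were 3.71 and 8.21. DKK1 and AXIN2 were called in HMLER alone. DKK1 started from 5.02 FPKM in HMLER and from 115.6 FPKM in MDA-MB-231, and was 160.7 and 195.0 FPKM after DAC. AXIN2 started from 0.237 and 1.30 FPKM, and was 1.26 and 1.71 FPKM after DAC. Whether the effect of DAC differed between the lines was not tested, since there is 1 value per condition in each. WNT11, WNT2B, DKK3 and TCF7, called in MDA-MB-231, were not in the HMLER table.

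**Figure D5:**
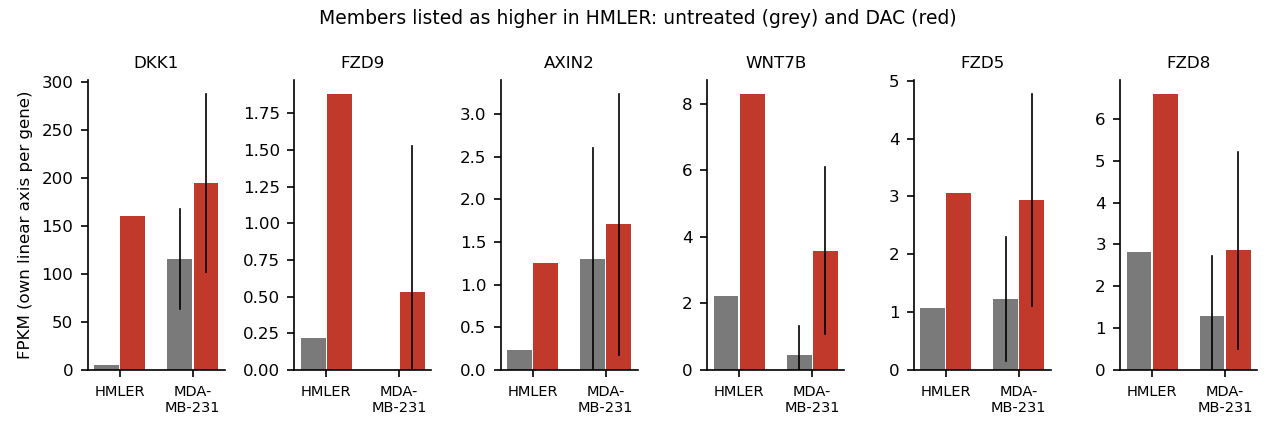
FPKM of the 6 members listed in HMLER, untreated (grey) and after DAC (red), in HMLER (left pair, the authors' merged values, no error given) and in MDA-MB-231 (right pair, 1 library each, black lines are Cuffdiff's bounds), each gene on its own linear axis from 0. The untreated DKK1 bar is 5.02 FPKM in HMLER and 115.6 FPKM in MDA-MB-231, while the DAC bars are 160.7 and 195.0 FPKM.

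The rest of the pathway was read on 78 genes in 7 lists by role. Of these, 53 reached 1 FPKM in MDA-MB-231, with 3 called higher and 6 lower, where 10.8% and 4.82% of all symbols were. Their median log2 change was -0.19, beside -0.08 for all symbols. Of the 17 Dishevelled and destruction complex genes, 15 reached 1 FPKM, and DACT3, an antagonist of Dishevelled, was higher (0.375 and 2.33 FPKM, ratio 6.23, bounds 0 to 1.53 and 0 to 6.83). Of the other receptors and co-receptors, the glypican GPC4 was higher (0.287 and 1.47 FPKM, ratio 5.13, bounds 0 to 0.820 and 0 to 2.95). The 12 β-catenin and nuclear partner genes at 1 FPKM or more held no call, nor did the 2 genes of secretion and ligand potentiation and the 1 other antagonist that reached 1 FPKM. The planar polarity branch, the β-catenin-independent arm that orients cells in a sheet, had 4 of 7 genes lower and 1 higher, beside 4.82% and 10.8% of all symbols. CELSR1 was 10.7 FPKM (bounds 5.87 to 15.6) and 2.26 FPKM (bounds 0.987 to 3.54), a ratio of 0.211 with bounds that did not overlap. VANGL1 was 15.3 and 6.41 FPKM (ratio 0.419), INVS 7.02 and 2.53 FPKM (ratio 0.361) and PRICKLE1 9.89 and 4.69 FPKM (ratio 0.474), while DAAM1 was 2.15 and 4.89 FPKM (ratio 2.28). Of the genes often used as targets, 2 of 10 were lower, JUN (91.9 and 28.6 FPKM, ratio 0.311) and FOSL1 (279.6 and 94.8 FPKM, ratio 0.339), which are also subunits of AP-1, where 4.82% of all symbols were lower. The bounds of JUN (48.2 to 135.7 and 15.7 to 41.5), of FOSL1 (137.8 to 421.4 and 52.1 to 137.5) and of the largest VANGL1 transcript (8.14 to 21.8 and 2.46 to 7.94) did not overlap, the last 2 by a small margin. In HMLER, 5 of the 78 genes were listed, beside 7.85% of all symbols. PORCN, the enzyme that attaches the lipid to Wnt ligands, was 13.5 and 46.0 FPKM there over 2 listed transcripts (ratio 3.40), and 3.37 and 6.39 FPKM in MDA-MB-231 (ratio 1.90). KREMEN2, a receptor for DKK1, was 2.40 and 4.98 FPKM in HMLER over 1 listed transcript (ratio 2.07) and 3.03 and 5.86 FPKM in MDA-MB-231 (ratio 1.93). For PORCN and KREMEN2 the MDA-MB-231 values sum 4 transcripts each. The HMLER values hold only transcripts past 2-fold, so that the ratios of the lines are unlike measures. LGR6, an R-spondin receptor (0.375 and 1.52 FPKM, ratio 4.05), the co-repressor TLE4 (1.65 and 3.86 FPKM, ratio 2.34) and CD44 (1.23 and 8.26 FPKM, ratio 6.71) were the others in HMLER, and 0 of the 78 genes was called in both lines, beside 3.66% of all symbols at 1 FPKM or more in MDA-MB-231.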

How the data were processed

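RNA of 6 libraries was sequenced from polyA RNA. According to the methods and labels, the authors used TopHat2 on hg19, and the deposited FPKM are Cuffdiff's, from Galaxy, for each RefSeq transcript; versions and library scaling are not given in the sources used here. The deposited HMLER table also holds the authors' fold changes, p-values and q-values, and the MDA-MB-231 table fold changes, none of which was used. FPKM were summed per symbol. Ratios carried no pseudocount, and log2 changes a pseudocount of 1 FPKM, which understates the change of low genes. All members at 1 FPKM or more or in the HMLER table are named, and other pathway genes where they were called or listed in HMLER. Members and lists were chosen with earlier results of these data known. The FPKM of 1 read was searched in lone transcripts of more than 2000 bases, after 200 bases were taken off each length; low values are those under 0.3 FPKM times effective kilobases. No count test was run, as the values are not counts. Gene positions are the hg19 loci of the MDA-MB-231 table, with strands from the GENCODE annotation lifted to GRCh37; promoter windows are RefSeq GRCh38.p14. Scripts ran in Python 3.11.15 with pandas 2.3.3, scipy 1.17.1, numpy 2.4.6 and matplotlib 3.10.9.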

Additional observations from a re-analysis of the deposited data

Results flagged for a closer look

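CD44, a cell surface receptor often used as a Wnt target, had 1 transcript listed as higher in HMLER and a ratio under 1 in MDA-MB-231. The listed HMLER transcript was 1.23 FPKM untreated and 8.26 FPKM after DAC, while in MDA-MB-231 the sum of its 8 transcripts was 212.3 and 138.7 FPKM, a ratio of 0.653 that was not called. The bounds of its largest transcript overlapped. The same transcript was 15.0 and 12.7 FPKM in MDA-MB-231, a ratio of 0.848, beside a median ratio of 0.912 over all symbols at 1 FPKM or more in both libraries. As the HMLER table holds only higher transcripts, the direction of the whole gene in HMLER is not known here. The difference between the lines was not tested, as each has 1 value per condition.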

How the results depend on the processing

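No paired analysis was possible because HMLER libraries were merged to a single value before deposit and MDA-MB-231 was sequenced once per condition, so that no replicate could be left out either. Of the members, 7 were higher in MDA-MB-231. The number became 25 when low values were kept, 3 where both conditions had to reach 1 FPKM and 1 (TCF7) where either had to reach 5 FPKM. It was 4 with 1 FPKM added before the ratio, 11 at 1.5-fold, 4 at 4-fold and 0 where the bounds must not overlap. Over all symbols, 1350 were higher, and under these settings, in the same order, 5193, 494, 465, 863, 2124, 686 and 131. The number of members higher was 7 under 2 FPKM untreated and 0 at or above it, a division added after the values were seen. The number of members lower (0) was 1 with every transcript considered (LEF1) and 3 at 1.5-fold (LGR4, LRP5 and WNT5B). Over all symbols, 604 were lower, and 1554 and 1944 under the same settings. In HMLER the 6 members became 3 where either condition had to reach 5 FPKM, 3 with 1 FPKM added and 3 at 4-fold. The number higher in both lines (3) was 0, 1 and 0 under these settings, and 0 where bounds must not overlap. It was 2 (FZD5 and FZD8) where both conditions had to reach 1 FPKM. Division by the median ratio gave 8 members higher in MDA-MB-231, with WNT10B added, and 1519 of all symbols. Of the other pathway genes, the 3 higher and 6 lower became 5 and 5 with that division. They became 0 and 4 where bounds must not overlap. Scaling, 1.5-fold and bounds could not be applied to HMLER. AXIN1 and LEF1 changed sign when the largest transcript was taken in place of the sum (log2 changes of -0.03 and 0.32). Over 500 bases on each side of the GRCh37 gene start, 22 of 33 members (66.7%) were CpG-rich, beside 59.2% of all symbols with a promoter window. The cause of these changes was not tested.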

Other observations

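Of the 6 symbols that begin like those of the members but fall outside the rule, none was called in MDA-MB-231 and none was listed in HMLER. TCF7L2 was 6.78 FPKM untreated and 7.35 FPKM after DAC, TCF7L1 was 3.29 and 2.32 FPKM, and LRP5L was 2.61 and 2.25 FPKM. LEF1-AS1, an antisense RNA at LEF1, was 0.278 and 0.0812 FPKM, and as the counting is not stated to use strand, its reads and those of LEF1 cannot be told apart.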
